A study of Mus musculus with 4 samples.

Results

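The genes described here are the 4 members of the Phactr family (Phactr1, Phactr2, Phactr3 and Phactr4), the 3 genes of the catalytic subunit of protein phosphatase 1 (Ppp1ca, Ppp1cb and Ppp1cc), and Ppp1r7, a regulatory subunit of that phosphatase. They are 8 of the 36088 genes in the deposited table. Phactr4 was chosen by its TPM values in these libraries, which were lower with CBR-5884, so its difference is given as a description with no test. The other 7 belong to the same protein family or complex and were listed with earlier results of these data known. RNA was sequenced from wild-type (WT) mouse male germ cells, sorted out of fetal testes that had been kept in culture. The culture received CBR-5884, a small molecule that blocks Phgdh, the enzyme that opens the serine synthesis pathway, or the solvent DMSO alone. There were 2 libraries with CBR-5884 and 2 with DMSO, called biological replicates in the design text, and the sample titles give day 14 for all 4. The dose, the length of treatment, the age of the fetuses, the gate of the sort and any pooling of testes are not stated in the labels or design text.

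Protein phosphatase 1 (PP1) removes phosphate from serine and threonine residues. Its catalytic subunit has little choice of substrate on its own and works in pairs with regulatory subunits, which direct it to a place or a substrate or hold it inactive. Phactr proteins are such subunits: they bind the catalytic subunit with their C-terminal end and monomeric actin with RPEL motifs, so actin and PP1 compete for them. Phactr4 is known from mouse embryos, where it acts through PP1 on the phosphorylation of the actin-severing protein cofilin. Ppp1r7 encodes Sds22, a leucine-rich repeat protein that binds newly made or free catalytic subunit. In the mouse testis Ppp1cc is the best known catalytic gene, because its loss makes males infertile.

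The promoters of Phactr4 and Ppp1r7 are shown because these were the 2 genes of the 8 with the largest differences. Each is the RefSeq window of GRCm38.p6 from 250 bases before to 50 bases after the start, printed 5′ to 3′ along the gene. The Phactr4 window lies at chr4:132422397-132422696 on the minus strand and the Ppp1r7 window at chr1:93343378-93343677 on the plus strand. Capitals mark 2 short motifs, read on either strand, ATGGCGG and ACTACAA.
Phactr4: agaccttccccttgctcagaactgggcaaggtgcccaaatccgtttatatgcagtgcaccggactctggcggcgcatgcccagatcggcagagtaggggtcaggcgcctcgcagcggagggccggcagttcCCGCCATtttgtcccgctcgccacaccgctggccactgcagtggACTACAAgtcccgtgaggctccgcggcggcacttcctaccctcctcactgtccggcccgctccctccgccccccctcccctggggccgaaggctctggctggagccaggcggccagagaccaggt
Ppp1r7: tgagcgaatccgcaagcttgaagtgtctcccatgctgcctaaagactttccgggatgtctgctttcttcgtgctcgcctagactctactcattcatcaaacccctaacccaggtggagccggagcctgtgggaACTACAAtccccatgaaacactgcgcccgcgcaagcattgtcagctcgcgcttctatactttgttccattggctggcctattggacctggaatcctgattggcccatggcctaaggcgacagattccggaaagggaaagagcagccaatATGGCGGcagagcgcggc

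These 2 motifs were picked after both windows had been read, because both windows hold them, so their presence in both is a description and not a result. ATGGCGG is the core of the binding site of YY1, and ACTACAA is part of the site of ZNF143 (Zfp143 in mouse). Among 32851 RefSeq promoter windows of this length, 4.06% held ATGGCGG, 3.24% held ACTACAA and 0.167% (55 windows) held both. In Phactr4 ATGGCGG ran on the opposite strand from 119 to 113 bases before the start, and ACTACAA ran on the gene's strand from 75 to 69 bases before it. In Ppp1r7 ACTACAA ran from 117 to 111 bases before the start and ATGGCGG from 32 to 38 bases after the first base. The table of promoters held windows for 6 of the 8 genes, and neither motif was found in those of Phactr1, Phactr2, Ppp1cb and Ppp1cc.

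The other motifs searched, again on both strands, were CCAAT, the NF-Y site, present in 37.4% of all windows, GGGCGG, the GC box, in 35.7%, TGACGTCA, the cyclic AMP response element, in 1.79%, and the CArG box of SRF, in 1.63%. Ppp1r7 held CCAAT 4 times and no GGGCGG, while Phactr4 held GGGCGG 1 time and no CCAAT. Ppp1cc held GGGCGG 7 times and Ppp1cb 3 times. Neither TGACGTCA nor a CArG box was found in the windows of these 6 genes. The G and C content was 67.7% in the Phactr4 window and 55.0% in that of Ppp1r7, against 53.8% over all windows. Among the other genes it was 73.0% for Ppp1cc, 67.3% for Ppp1cb, 65.0% for Phactr2 and 43.7 to 59.0% for Phactr1.

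**Figure D1:**
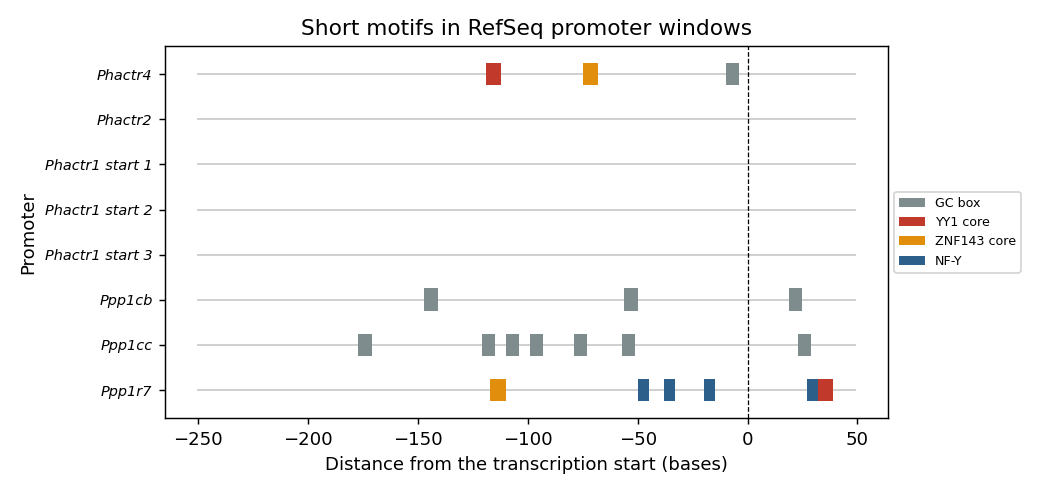
Position of 4 short motifs (coloured bars, to scale) in the RefSeq promoter windows of 6 genes, with distance from the transcription start in bases on the x axis and the start as a dashed line. Phactr4 and Ppp1r7 hold the YY1 core ATGGCGG and the ZNF143 core ACTACAA, and Ppp1cc holds GGGCGG (GC box) 7 times; Phactr1 has 3 start sites.

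The libraries held an estimated 22500000 to 28200000 reads, with the most frequent value above 0 of the deposited scaled reads per base taken as 1 read. Only 35.2 to 36.3% of low values were whole multiples of that value, so all read estimates here are rough. The germ cell markers Dazl, Ddx4, Mael, Dnd1, Tdrd1, Piwil2, Mov10l1, Rnf17 and Tex101 summed to 2654 and 2646 TPM (transcript abundance corrected for length and library total) with CBR-5884, against 2609 and 2592 TPM with DMSO. The 17 markers of somatic testis cells summed to 129.8 and 113 TPM with CBR-5884, against 152 and 84.9 TPM with DMSO. Of those 17, 0 were at 0 in CBR-5884 library 2 and DMSO library 2, 1 in CBR-5884 library 4 and 2 in DMSO library 4. The Sertoli cell markers Sox9, Amh, Wt1, Cldn11 and Inha, which made up most of that sum, had 105 and 87.1 TPM against 123 and 61.6 TPM. The 3 somatic markers with the smallest p, Acta2 of smooth muscle, Star of Leydig cells and Adgre1 of macrophages, overlapped between the conditions and were not called (limma adjusted p = 0.998 each). Sertoli cell RNA was lowest in DMSO library 4 and highest in DMSO library 2, and its part in the results below was not tested.

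Differences were tested with limma, after adding 1 to each TPM and taking log2. This covered the 14920 genes that averaged 1 TPM or more, and a fold change below is on that scale, CBR-5884 over DMSO. Phactr3 lay below that limit, and the other 7 genes had at least 1 TPM in every library. Of the 6 genes tested, which leaves out Phactr4, 0 passed a Benjamini-Hochberg adjusted p under 0.05, against 0% of all genes tested; the smallest adjusted p of any gene was 0.0965. At an unadjusted p under 0.05 there was 1 of the 6, Ppp1r7, against 3.66% of all genes. Because the 6 were listed with earlier results of these data known, this share is a description and no independent support. The libraries of both conditions did not overlap for 2 of the 6, Ppp1r7 and Ppp1cc, both lower with CBR-5884, against 17.7% of all genes lower and 31.3% in either direction.

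**Figure D2:**
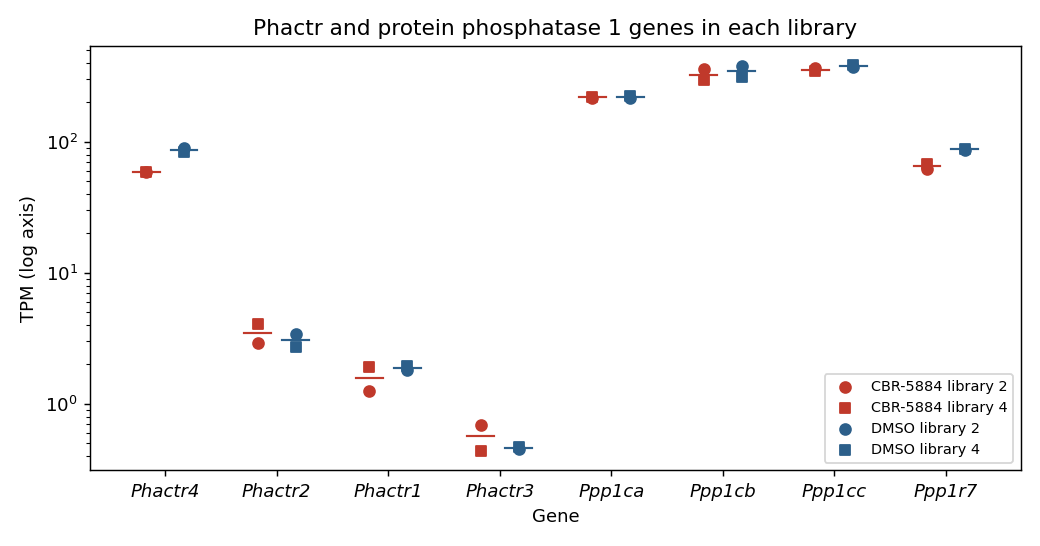
TPM (log axis) of each gene in each library, CBR-5884 in red left of DMSO in blue, circles for libraries numbered 2, squares for those numbered 4 and a bar for the mean of 2. Phactr4 and Ppp1r7 are the genes whose CBR-5884 points stand clearly below their DMSO points, with means of 58.6 against 86.6 TPM and 64.9 against 87.4 TPM.

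Phactr4 was the main Phactr mRNA of these germ cells. It had 58.4 and 58.8 TPM in the CBR-5884 libraries, against 89.9 and 83.3 TPM in the DMSO libraries. Both CBR-5884 libraries lay below both DMSO libraries, by more than the gap between the DMSO libraries. The means were 58.6 ± 0.282 TPM with CBR-5884 and 86.6 ± 4.65 TPM with DMSO (SD, n = 2 each), 32.4% lower with CBR-5884, a log2 fold change of −0.56. These are the values for which the gene was chosen. Of 9538 genes with a mean of at least 10 TPM, 35 had a fold change as low or lower, Phactr4 included.

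The Phactr4 value rests on an estimated 2284 and 2100 reads in the CBR-5884 libraries and 3023 and 2598 reads in the DMSO libraries. The gene lies on chromosome 4 from 132355923 to 132422489 on the minus strand (GENCODE M21, GRCm38). Of its 4958 distinct 31-base words, the unit that kallisto by default matches, 0 occur in another gene searched. The search covered the transcripts of the table that are also in GENCODE M21. Its 6 listed transcripts share 1 gene value in the table, so a change in their mix was not analysed here.

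The other Phactr genes were near the floor of these libraries. Phactr2, which like its relatives binds actin and PP1, had 2.92 and 4.04 TPM with CBR-5884, against 3.44 and 2.72 TPM with DMSO. Phactr1, best known from brain and blood vessels, had 1.26 and 1.91 TPM against 1.80 and 1.95 TPM. Phactr3, also called scapinin, had 0.696 and 0.438 TPM against 0.452 and 0.470 TPM. In all 3 the conditions overlapped.

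The precision for these low genes was poor. The 95% interval of the fold change ran from −0.87 to 0.54 for Phactr1 (estimate −0.17, limma adjusted p = 0.998) and from −0.51 to 0.77 for Phactr2 (estimate 0.13, limma adjusted p = 0.998). A fold change as low as that of Phactr4 lies inside the interval of Phactr1 and just below that of Phactr2. Phactr1 rested on an estimated 20 to 28 reads in a library, Phactr3 on 23 to 43 and Phactr2 on more, 139 to 236. The Phactr4 share of the summed Phactr TPM was 92.3 and 90.2% with CBR-5884, against 94.0 and 94.2% with DMSO. The sum itself was 63.3 and 65.2 TPM against 95.6 and 88.5 TPM, so nearly all of its difference lay in Phactr4.

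The catalytic genes were several times more abundant than Phactr4. Ppp1ca, the alpha subunit, had 218 and 221 TPM with CBR-5884, against 218 and 222 TPM with DMSO. Its fold change was 0.00 with an interval from −0.17 to 0.17 (limma adjusted p = 0.998). Among the 6 genes tested this was the narrowest interval.

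Ppp1cb, the beta subunit that myosin phosphatase uses, had 358 and 295 TPM with CBR-5884, against 380.4 and 313 TPM with DMSO. In both conditions the library numbered 2 was higher than that numbered 4, and this gap was larger than the one between the conditions. The means were 326 ± 44.7 TPM with CBR-5884 and 347 ± 47.7 TPM with DMSO (SD, n = 2 each), a fold change of −0.09 with an interval from −0.41 to 0.24 (limma adjusted p = 0.998).

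Ppp1cc, the gamma subunit, was the most abundant by its mean of all 4 libraries (368 TPM). It had 363 and 348 TPM with CBR-5884, against 375 and 384 TPM with DMSO. The conditions did not overlap, but the fold change was −0.09, and its interval from −0.27 to 0.08 includes 0 (limma adjusted p = 0.998). The summed level of the 3 catalytic genes was 939 and 863 TPM with CBR-5884, against 973 and 919 TPM with DMSO, which overlap. Ppp1cc made up 38.7 and 40.3% of that sum against 38.5 and 41.8%, Ppp1cb 38.1 and 34.1% against 39.1 and 34.0%, and Ppp1ca 23.2 and 25.6% against 22.4 and 24.2%.

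How well reads tell these genes apart depends on their sequence. The 60-base stretch of coding sequence in which they are most alike is shown for that reason, from GENCODE M21 transcripts, with capitals at the 8 positions where the 4 sequences are not all alike. Ppp1ccb, a processed copy of Ppp1cc on chromosome 7 (119739926 to 119742226) annotated as a transcribed pseudogene, is shown beside them.
Ppp1cc: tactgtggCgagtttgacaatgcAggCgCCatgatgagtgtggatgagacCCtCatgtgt
Ppp1ccb: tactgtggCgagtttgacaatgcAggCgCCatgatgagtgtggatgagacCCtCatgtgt
Ppp1ca: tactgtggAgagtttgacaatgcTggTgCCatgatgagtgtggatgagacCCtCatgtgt
Ppp1cb: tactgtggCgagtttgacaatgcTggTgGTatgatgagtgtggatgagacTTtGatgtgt

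In this stretch, from base 814 to 873 of the coding sequence of Ppp1cc, Ppp1ccb is identical to Ppp1cc. The longest coding sequence of Ppp1cc (1014 bases) was aligned with a Ppp1ccb transcript of 972 bases. They matched at 98.2% of the 971 aligned bases, with an identical run of 940 bases. Only this form of Ppp1cc was compared, so the figure need not hold for another form. Identity was 77.4% between Ppp1ca and Ppp1cc, 74.8% between Ppp1ca and Ppp1cb and 73.5% between Ppp1cb and Ppp1cc. Of the 31-base words of the coding sequences, Ppp1ca and Ppp1cc share 14, while Ppp1cb shares 0 with either.

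The value of Ppp1cc is therefore uncertain, since 40.6% of all its 31-base words occur in Ppp1ccb. Ppp1ccb was listed at 155 and 159 TPM with CBR-5884, against 149.9 and 158 TPM with DMSO. The sum of Ppp1cc and Ppp1ccb was 519 and 506 TPM with CBR-5884, against 525 and 542 TPM with DMSO, and again the conditions did not overlap. For Ppp1ca 7.61% of the words occur in Rad9a, which overlaps it on the opposite strand and was listed at 9.74 to 11.0 TPM.

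Ppp1r7 showed the largest difference of the 6 genes tested. It had 62.6 and 67.2 TPM with CBR-5884, against 86.0 and 88.8 TPM with DMSO. Both CBR-5884 libraries lay below both DMSO libraries, and the gap between the conditions was larger than that within either. The means were 64.9 ± 3.26 TPM with CBR-5884 and 87.4 ± 2.00 TPM with DMSO (SD, n = 2 each), 25.8% lower with CBR-5884. The fold change was −0.42 with a standard error of 0.08 and a 95% interval from −0.63 to −0.22. Its unadjusted p of 0.00237 became an adjusted p of 0.770 over all genes in limma, so it did not pass the threshold. Among the genes with a mean of at least 10 TPM, 91 of 9538 had a fold change as low or lower.

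Ppp1r7 lies on chromosome 1 from 93342854 to 93373489 on the plus strand and rests on an estimated 874 and 856 reads with CBR-5884, against 1032 and 988 reads with DMSO. Its exons overlap those of Pask, a PAS domain kinase gene on the opposite strand, with which it shares 199 of its 10475 31-base words. Pask had 60.9 and 61.4 TPM with CBR-5884, against 55.5 and 55.6 TPM with DMSO, a fold change of 0.14 with an interval from −0.07 to 0.34 (limma adjusted p = 0.998). The labels do not state the strand setting of the counting, and the part of Pask reads in the Ppp1r7 value was not tested.

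**Figure D3:**
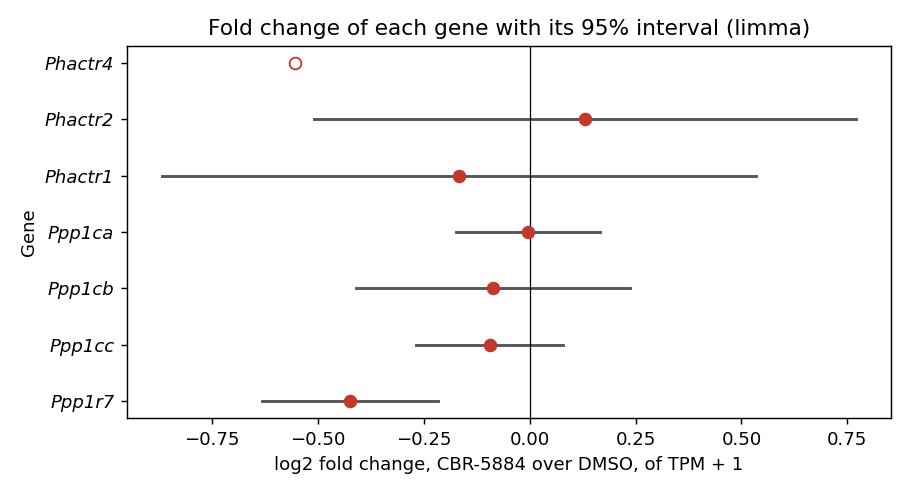
Log2 fold change (CBR-5884 over DMSO, of TPM + 1) of 7 genes, with the 95% interval from limma as a line for the 6 genes tested. The interval of Ppp1r7 runs from −0.63 to −0.22 and the other 5 include 0; Phactr4 is an open circle with no interval because it was chosen for this difference.

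By mean level over the 4 libraries the order was Ppp1cc, Ppp1cb, Ppp1ca, Ppp1r7, Phactr4, Phactr2, Phactr1 and Phactr3. Ppp1cc and Ppp1cb overlapped between libraries, as did Ppp1r7 and Phactr4, so those neighbours in the order were not apart. Phactr4 stood at 6.22 and 6.81 TPM per 100 TPM of the catalytic genes with CBR-5884, against 9.24 and 9.06 with DMSO. Ppp1r7 stood at 6.67 and 7.78 TPM per 100 TPM with CBR-5884, against 8.84 and 9.66 with DMSO.

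**Figure D4:**
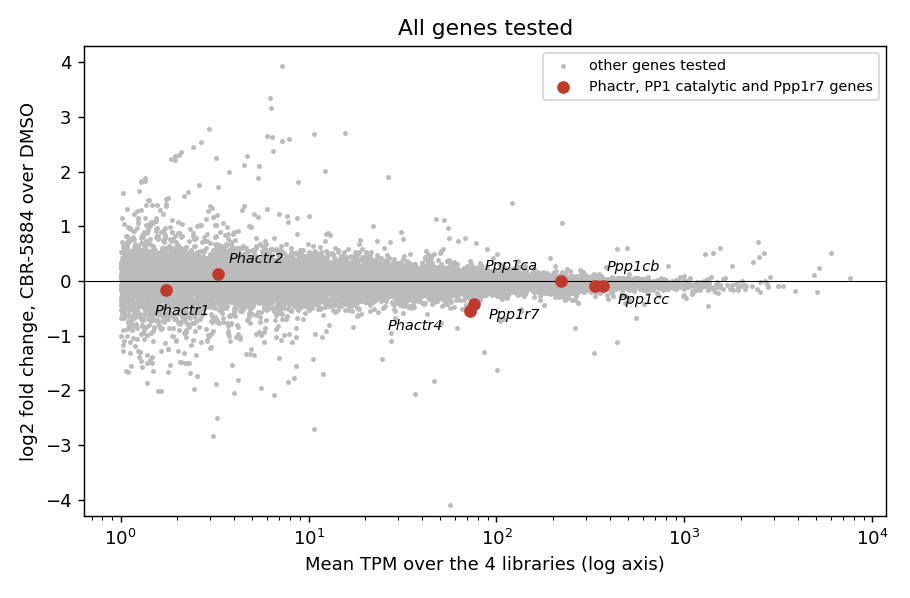
Log2 fold change (CBR-5884 over DMSO, of TPM + 1) against mean TPM (log axis) for the 14920 genes tested in grey, with the 7 genes of this set that passed the filter in red. Phactr4 (−0.56) and Ppp1r7 (−0.42) sit at the lower edge of the cloud at their level, and the 3 catalytic genes sit near 0.

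The genes whose levels over the 4 libraries were most like those of Phactr4 were ranked by the root mean square distance between log2 profiles centred on their own mean, among the 8903 genes with a mean of at least 10 TPM that are left without predicted genes, Rik clones, pseudogenes with a -ps name and genes without a symbol. The 5 nearest were Myt1l, Rhoq, Chrna4, Ppp1r7 and Rreb1, at distances of 0.079 to 0.093 on the log2 scale. Myt1l, a zinc finger transcription factor of neurons, had 25.1 and 23.4 TPM with CBR-5884, against 33.5 and 31.9 TPM with DMSO. Chrna4, a subunit of the nicotinic acetylcholine receptor, had 10.7 and 9.44 TPM against 15.7 and 13.2 TPM. Rreb1, a zinc finger transcription factor, had 16.5 and 19.3 TPM against 25.7 and 23.4 TPM. With 4 libraries, such a ranking finds genes that are lower with CBR-5884 like Phactr4.

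The other regulatory subunits of PP1 were spread to both sides of 0, without a call. Of 39 listed genes 31 were tested and 0 passed the threshold with limma, against 0% of all genes. An unadjusted p under 0.05 was reached by 0 of them, against 3.66% of all genes. Their median fold change was 0.01, against a median of −0.01 over all genes. In sign, 17 were positive (54.8%, against 47.2% of all genes) and 14 negative. The conditions did not overlap for 5 genes higher and 6 lower, where 13.6% of all genes were higher and 17.7% lower in that way.

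The most abundant was Ppp1r8, a nuclear inhibitor of PP1, with 173 and 163 TPM with CBR-5884, against 187 and 172 TPM with DMSO. Ppp1r14b, of a family of PP1 inhibitors, had 175 and 155 TPM against 173 and 179 TPM. Ppp1r12a, which takes PP1 to myosin, had 136 and 135 TPM against 137 and 133 TPM. In these 3 genes the conditions overlapped. Ppp1r11, an inhibitor that binds PP1 together with Sds22, had 46.8 and 52.8 TPM with CBR-5884, against 58.2 and 54.4 TPM with DMSO, which do not overlap (fold change −0.17, limma adjusted p = 0.998). Ppp1r27 had 0.987 and 0.382 TPM against 1.49 and 2.33 TPM, and Ppp1r32 had 8.44 and 6.96 TPM against 3.46 and 6.52 TPM, both among the 3 smallest p of the list and neither called (limma adjusted p = 0.998 each).

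Catalytic genes of the related phosphatases PP2A, calcineurin, PP4, PP5 and PP6 gave no call either. All 8 were tested, 0 were called by limma and 0 had an unadjusted p under 0.05, against 0% and 3.66% of all genes. The median fold change was −0.02. Ppp4c, of PP4, had 229 and 220.4 TPM with CBR-5884, against 225 and 229 TPM with DMSO. Ppp2cb, of PP2A, had 158 and 137 TPM against 158 and 149 TPM. Ppp2ca, also of PP2A, had 69.6 and 67.0 TPM against 84.1 and 66.9 TPM. These 3 genes overlapped between the conditions.

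The conditions did not overlap for 2 of the 8 higher and 1 lower, where 13.6% of all genes were higher and 17.7% lower in that way. Ppp3cb, of calcineurin, had 77.9 and 82.1 TPM with CBR-5884, against 71.8 and 76.3 TPM with DMSO, and Ppp5c, of PP5, had 118 and 128 TPM against 115 and 113 TPM. Ppp6c, of PP6, had 127.34 and 132.58 TPM with CBR-5884, against 137.52 and 132.65 TPM with DMSO, so the conditions all but met.

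Genes listed for cofilin phosphorylation, the process on which Phactr4 is known to act, were tested in all 17 cases. With limma 0 were called and 0 were at an unadjusted p under 0.05, against 0% and 3.66% of all genes. The median fold change was −0.07, with 11 negative (64.7%, against 52.8% of all genes) and 6 positive. The list mixes phosphatases that activate cofilin, kinases on the inactivating side and the integrin gene Itgb1. These counts therefore give no direction for cofilin phosphorylation itself. The conditions did not overlap for 6 of the 17 genes lower and 1 higher, where 17.7% of all genes were lower and 13.6% higher in that way. Cfl1, the main cofilin, had 442 and 448 TPM with CBR-5884, against 445 and 487 TPM with DMSO, and Cfl2, its muscle relative, had 131 and 141 TPM against 136 and 147 TPM. Both overlapped.

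Ssh2, a slingshot phosphatase that activates cofilin, had 37.9 and 41.3 TPM with CBR-5884, against 44.9 and 44.5 TPM with DMSO. Pak1, a kinase upstream of the LIM kinases that inactivate cofilin, had 67.7 and 58.0 TPM against 73.8 and 67.8 TPM. Itgb1, the beta-1 integrin, had 149 and 157 TPM against 168 and 167 TPM. In these 3 genes the CBR-5884 libraries lay below the DMSO libraries, with fold changes of −0.17, −0.17 and −0.13.

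Actin and the genes of its transcription factor loop, in which MRTF proteins carry the same actin-binding RPEL motif and drive SRF, had a median fold change of −0.01 over 26 of 27 genes tested. With limma 0 were called and 0 had an unadjusted p under 0.05, against 0% and 3.66% of all genes. The conditions did not overlap for 4 genes higher and 4 lower, where 13.6% of all genes were higher and 17.7% lower in that way. Actb, beta-actin, had 1415 and 1462 TPM with CBR-5884, against 1456 and 1572 TPM with DMSO, and Actg1, gamma-actin, had 879.8 and 868 TPM against 890.4 and 941 TPM. Mrtfa had 38.9 and 35.4 TPM against 38.3 and 43.8 TPM, Mrtfb 49.8 and 58.6 TPM against 55.4 and 56.5 TPM, and Srf 61.2 and 60.9 TPM against 55.7 and 66.8 TPM. Apart from Actg1, each of these overlapped between the conditions.

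Pfn1, profilin, which loads actin with ATP, had 1004 and 992 TPM with CBR-5884, against 1030.4 and 1012 TPM with DMSO, and Tmsb10, a thymosin that binds free actin, had 1049 and 913 TPM against 991 and 1046 TPM. The 3 genes with the smallest p of this list were all higher and none was called (limma adjusted p = 0.998 each). Myl9, a myosin light chain of contractile cells, had 9.39 and 8.26 TPM with CBR-5884, against 6.18 and 6.38 TPM with DMSO. Fhl2, a LIM-only cofactor, had 2.02 and 1.85 TPM against 0.515 and 1.07 TPM. Pfn2 had 50.2 and 52.8 TPM against 45.1 and 47.4 TPM.

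**Figure D5:**
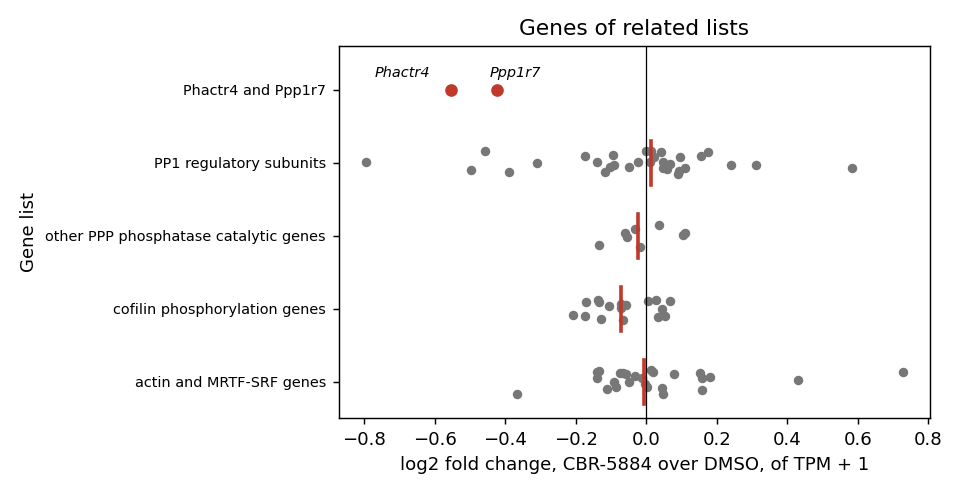
Log2 fold change (CBR-5884 over DMSO, of TPM + 1) of each tested gene of 4 related lists (grey points, spread vertically at random), with the list median as a red line and Phactr4 and Ppp1r7 above. The 4 medians lie between −0.07 and 0.01, and Phactr4 (−0.56) and Ppp1r7 (−0.42) lie left of most points.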

How the data were processed

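RNA was measured in 4 libraries of sorted mouse germ cells. The submitters' processing notes name fastp, kallisto and the build mm10, with no version, setting or strand. The authors' deposited table holds, per the file headers, gene-level TPM and scaled reads per base, both treated as signal values and repeated by the authors on each transcript line, so a single line was used for each gene and library. Neither is a count: 35.2 to 36.3% of low scaled values were whole multiples of the most frequent value above 0 (tolerance 0.05), so count tests were not used. The deposited TPM signal summed to 966761 to 1002976 per library. Intervals come from the spread between libraries of each gene, which limma moves toward the spread of genes of similar level.

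The comparison used limma-trend (limma 3.58.1, R 4.3.3), two-sided and without covariates, on log2(TPM + 1) of all genes that averaged 1 TPM or more, and was tested on simulated data. With 2 against 2 libraries an exact permutation test cannot go below p = 0.33, so none was used. Library names end in 2 or 4 while the labels number replicates 1 and 2, so libraries are called by condition and table number. Which labelled replicate each library is was not worked out. No result used the labelled replicate, so exchanging the replicates within both conditions could not change any. The main fit used only the condition, and the replicate block also used the table's library number. Whether they came from separate cultures beyond the term biological replicates is not given. In bulk RNA, fewer cells of a type and less RNA per cell cannot be told apart. The genes and lists were chosen with earlier results of these data known. Named from each list were the 3 most abundant genes and the 3 with the smallest p, plus Actb, Actg1, Mrtfa, Mrtfb, Srf, Cfl1 and the 5 profiles nearest to Phactr4. Alternatives covered the pseudocount, the low-value filter, scaling, the second measure, a replicate block, robust variance and leaving out each library.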

Additional observations from a re-analysis of the deposited data

How the results depend on the processing

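Under all 12 alternatives Phactr4 (−0.61 to −0.50) and Ppp1r7 (−0.48 to −0.37) stayed lower with CBR-5884, which was largely fixed in advance. The filter, the replicate block and robust variance cannot move a fold change. Where the conditions do not overlap, leaving out 1 library cannot turn the sign. Phactr4 was chosen by these values, so its range is a description. With all 4 libraries kept, Ppp1r7 had a limma adjusted p of 0.475 to 0.999, and 0 of the tested genes of this set was called. Over all genes, robust variance called 1 higher and scaled reads per base called 1 lower, against 0 and 0. The sign of near-zero fold changes was not stable: with equal library totals Ppp1ca was 0.023, and with a library left out the ranges were −0.018 to 0.0100 for Ppp1ca, −0.23 to 0.053 for Ppp1cb, −0.35 to 0.016 for Phactr1 and −0.051 to 0.31 for Phactr2. The median of the somatic marker list ran from −0.31 without DMSO library 4 to 0.35 without DMSO library 2; the cause was not tested. The sign of the list median changed among alternatives for the PP1 regulatory (−0.038 to 0.045), actin (−0.032 to 0.019) and other phosphatase lists (−0.037 to 0.016), and not for the cofilin list (−0.11 to −0.031). With the table's library number as a replicate block 0 genes were called in either direction and Ppp1r7 was at −0.42. Deviations of same-numbered libraries correlated at 0.20 across genes, which with 2 pairs does not show that they are paired. Log2 levels correlated at 0.986 between the libraries numbered 2 and 0.980 between those numbered 4. Within CBR-5884 the value was 0.981, within DMSO 0.978, and between conditions with unlike numbers 0.982 and 0.977. The main fit has no term for the library number. Depth limits Phactr1, Phactr2 and Phactr3 most.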

Other observations

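Of the genes beside Phactr4 on chromosome 4 that averaged 1 TPM or more, the nearest pair on each side is described, all protein-coding. Genes below that level were passed over. Rcc1, the exchange factor of Ran, 2317 bases away, had 109.99 and 111 TPM with CBR-5884, against 105 and 124 TPM with DMSO. Med18, a subunit of Mediator on the other side, had 22.8 and 21.7 TPM against 24.7 and 23.4 TPM. Sesn2, which senses leucine and restrains mTORC1, had 46.8 and 50.1 TPM against 46.0 and 47.1 TPM. Trnau1ap, a selenocysteine tRNA partner, had 76.8 and 67.6 TPM against 58.2 and 78.6 TPM. Of these 4 neighbours, which were chosen by position and mean level, Med18 alone had CBR-5884 libraries below both DMSO libraries, as 17.7% of all genes tested did.

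Near Ppp1r7, by the same rule of position and mean level, Hdlbp, an RNA-binding protein gene, had 159.9 and 159 TPM with CBR-5884, against 171 and 161 TPM with DMSO. Mterf4, a mitochondrial ribosome assembly factor, had 25.3 and 32.6 TPM against 29.6 and 27.4 TPM. Sept2, a septin gene, had 54.6 and 41.9 TPM against 52.1 and 47.9 TPM. Sned1, an extracellular matrix gene, had 2.35 and 1.74 TPM with CBR-5884, against 1.18 and 1.05 TPM with DMSO. Of these 4 neighbours, the CBR-5884 libraries lay above both DMSO libraries for Sned1, as for 13.6% of all genes tested, and below both for Hdlbp, as for 17.7%.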
